A study of Homo sapiens with 2 samples.

Results

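Chromosome 21 is the smallest human autosome and an acrocentric chromosome, with a short arm made largely of repeats. Its TRF2 peaks with a summit under 15 Mb on hg38, which is the whole short arm, the centromere bands and the first 2 Mb of the long arm, number 597 of the 24258 peaks of the list (2.46%, exact binomial 95% interval 2.27% to 2.66%). They were chosen by position alone. Their signal was compared in HCT116, a human colon cancer cell line, between 1 library immunoprecipitated with an antibody to TRF2 and 1 input library made with no antibody. Cells for both were plated and, 72 h later, fixed with 1% formaldehyde, and the labels name no treatment. A single library on each side leaves nothing to test between samples, so no p is given, and every interval covers counting error only. Neighbouring peaks are not independent, which makes the intervals on counts too narrow.

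TRF2 is the telomeric repeat-binding factor encoded by TERF2. As part of shelterin it binds the double-stranded TTAGGG repeats of chromosome ends through a Myb-like domain, shapes the end into a loop and keeps it from being read as a break. The short arms of the acrocentric chromosomes carry the arrays of ribosomal RNA genes that form the nucleolus, flanked by satellite repeats and by blocks duplicated between chromosomes. They are held in hg38 only in part. How reads that fit several places equally well were treated was not given in the sources used here, so a peak on this arm marks a sequence of the assembly and not necessarily the chromosome its reads came from.

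The sequences of the peaks were not analysed here. Those of annotated gene starts are given to show the letters near the peaks. Of 61 RefSeq promoter windows (GRCh38.p14, 250 bases before to 50 after a gene start) in this stretch, 0 overlapped a peak (exact upper limit 5.87%). Over all 35116 windows 4 did (0.0114%), so the count of 0 is no trait of this stretch. TPTE is shown as the protein-coding gene with the most summits and LOC105372734, a long non-coding RNA gene, as the gene whose window lay closest to a peak. Both were picked after their values were seen. The TPTE window is chr21:10521333-10521632 on the plus strand, and the LOC105372734 window is chr21:9986284-9986583 on the minus strand. Mature miR-6724-5p, chr21:8249515-8249537 on the plus strand, is added because copies of its gene stand at the heads of the ribosomal units described further on. Capitals in it mark the seed, bases 2 to 8.
TPTE promoter: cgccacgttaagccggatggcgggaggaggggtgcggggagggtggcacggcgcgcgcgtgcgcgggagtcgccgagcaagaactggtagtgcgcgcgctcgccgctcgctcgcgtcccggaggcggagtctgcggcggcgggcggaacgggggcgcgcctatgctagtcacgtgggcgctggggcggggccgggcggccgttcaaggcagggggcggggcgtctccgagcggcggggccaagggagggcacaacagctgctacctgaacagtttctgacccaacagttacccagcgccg
LOC105372734 promoter: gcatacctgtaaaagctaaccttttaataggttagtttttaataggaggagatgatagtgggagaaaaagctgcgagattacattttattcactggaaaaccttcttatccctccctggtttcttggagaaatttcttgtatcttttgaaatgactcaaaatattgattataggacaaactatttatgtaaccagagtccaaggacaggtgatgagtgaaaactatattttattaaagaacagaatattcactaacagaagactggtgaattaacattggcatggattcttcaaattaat
miR-6724-5p: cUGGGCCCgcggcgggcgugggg
The telomere repeat unit was searched on both strands as TTAGGG and CCCTAA, which do not overlap each other. Neither promoter holds it, so neither has a base in capitals. It occurs in 3179 of 35116 RefSeq promoter windows (9.05%) and in 4 of the 61 of this stretch (6.56%). The nearest summit was 7240 bp from the TPTE start and 108 bp inside the LOC105372734 start, where a peak of fold 3.90 with 7 reads stopped short of the window.

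Peaks were crowded onto the short arm, in band p11.2, which lies next to the centromere bands. Their number did not rise steadily toward the centromere: the steps of 1 Mb from 7 Mb on held 163, 44, 56 and 261 peaks. Band p11.2, cytogenetically variable heterochromatin, held 524 of the 597 peaks (87.8%), or 134 per Mb (exact Poisson interval 123 to 146). Band p12, the stalk that carries ribosomal genes in cytogenetic maps, held 46, or 11.8 per Mb. Bands p13 and p11.1 held 0, band q11.1 held 19 and band q11.2 held 8. Lengths here include unknown bases, so the counts of 0 say nothing of sequence that hg38 lacks: the most distal RefSeq gene of the arm begins at 5010454 and the most distal peak at 5216682. The first 15 Mb hold 32.1% of the chromosome's length and 597 of its 629 peaks (94.9%, exact binomial interval 92.9% to 96.5%). Their density was 39.8 per Mb, against 1.01 per Mb on the rest of chromosome 21, a ratio of 39.4 (exact interval 27.6 to 58.2).

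**Figure D1:**
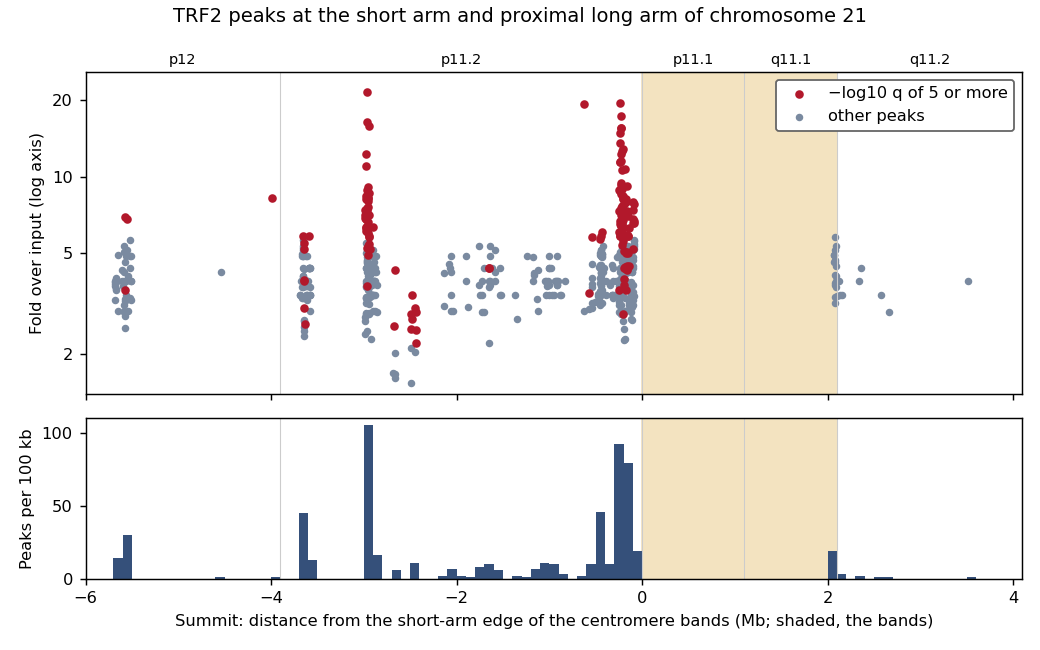
Fold over input (log axis, top) and peaks per 100 kb (bottom) of the 597 peaks against the distance of the summit from the short-arm edge of the centromere bands, in Mb, with bands named above; the outer part of p12 and all of p13, which had no peak, are not drawn. The tallest bars, up to 105 peaks, and the folds over 10 stand in p11.2, and the shaded centromere bands are empty except at their long-arm edge.

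The centromere bands p11.1 and q11.1 had 19 peaks, all between 12965838 and 12996498 at the long-arm end of q11.1, and the 2152 kb between the summits at 10814388 and 12966055 had none. These 19 peaks were shallow: fold 3.18 to 5.77 (median 4.1), at most 15 reads, and none with a −log10 q of 5 or more. The same bands held 3317 peaks on chromosome 13, 31 on chromosome 14, 333 on chromosome 15 and 123 on chromosome 22. Per Mb, chromosome 21 had 0.00655 times the density of chromosome 13 (exact interval 0.00394 to 0.0102), 0.0815 times that of chromosome 15 (0.0485 to 0.129) and 0.272 times that of chromosome 22 (0.158 to 0.443). Against chromosome 14 the ratio was 0.613, with an interval of 0.327 to 1.12 that includes 1. The alpha satellite arrays of chromosomes 13 and 21 are nearly identical by general knowledge. From this list, peaks of the centromere of chromosome 21 cannot be told apart from peaks placed on chromosome 13.

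Next to the centromere on the long arm, q11.2 had 8 peaks, at 13025860 to 14408228, all of 5 to 8 reads and all with the input background at its genome-wide minimum of 1.05 scaled reads, the floor of the peak caller. Their fold was 2.93 to 4.39. The last peak inside the 15 Mb limit (14408160 to 14408228) had a fold of 3.90 and 7 reads, and the nearest outside it (15493340 to 15493408) had 3.41 and 6 reads. The limit thus falls between weak, isolated peaks and divides no cluster.

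Taken by the same rule, to 2 Mb past the centromere bands, the other acrocentric chromosomes differed widely. Chromosome 21 had 39.8 peaks per Mb, against 193 on chromosome 13, 7.77 on chromosome 14, 16.8 on chromosome 15 and 19.9 on chromosome 22. The order was another on the short arm alone, outside the centromere bands. There chromosome 21 had 570 peaks or 52.3 per Mb, against 710 or 43.0 per Mb on chromosome 13, 12 or 0.745 per Mb on chromosome 14, 30 or 1.71 per Mb on chromosome 15 and 260 or 19.0 per Mb on chromosome 22. These densities divide by the full length of each arm, unknown bases included, which is 10.9 Mb on chromosome 21 and 16.5 Mb on chromosome 13. By this measure alone chromosome 21 was the densest of the 5 short arms. Its density was 1.22 times that of chromosome 13 (exact interval 1.087 to 1.359) and 2.76 times that of chromosome 22 (2.38 to 3.20). By count chromosome 13 had more peaks. Over the whole stretch to 2 Mb past the centromere bands, those bands included, the peaks were closer together than on 3 of the 4. The median distance between neighbouring summits there was 769 bp on chromosome 21 and 419 bp on chromosome 13. It was 2397.5 bp on chromosome 14, 3088 bp on chromosome 15 and 1758 bp on chromosome 22. Distances on the short arms alone were not computed. How much of each arm hg38 holds was not analysed here, so the order of the arms per base of known sequence cannot be given and may differ.

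Strength was ordinary for the list. Over the 597 peaks the fold over input ran from 1.55 to 21.6 around a median of 4.19, against a median of 3.45 on the rest of chromosome 21 and 4.06 in the whole list. The pileup of immunoprecipitated reads at the summit had a median of 10 (5 to 135), over a median input background of 1.41 scaled reads (1.05 to 47.9). Strong peaks, here those whose −log10 q reached at least 5, were 152 of 597 (25.5%, exact interval 22% to 29.2%), below the 30.0% of the whole list. A q-value under 0.05 was reached by 476 (79.7%, whole list 79.3%), and a fold of 5 or more by 157 (26.3%, whole list 25.2%). Both of these shares are close to those of the whole list.

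The 597 peaks formed 62 clusters when summits within 10 kb were joined, 24 of them single peaks. Another summit lay within 1000 bp of 433 peaks (72.5%). The 2 largest clusters, both in p11.2, held 305 peaks (51.1%), and the 6 largest held 426 (71.4%). Of the 152 strong peaks 122 (80.3%, exact interval 73.0% to 86.3%) were in the 2 largest, as were 19 of the 20 peaks with a fold of 10 or more. No RefSeq gene was annotated within 3 kb of 302 of their 305 peaks. Most peaks of the stretch had none there either: 97 of the 597 (16.2%) had one.

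The largest cluster ran over 163 kb, from 10651131 to 10814523, and stood nearest to the centromere on the short-arm side. It had 184 peaks with a median distance of 559 bp, and peaks covered 20.4% of its length. Fold was 2.28 to 19.5 (median 4.70), the pileup reached 135 reads, and 79 of the 184 were strong. Strong peaks occurred in every 10 kb step except the 2 from 120 to 140 kb, with 34 of the 79 in the first 30 kb. Its nearest summit lay 1.34 kb from IGHV1OR21-1, an immunoglobulin heavy variable pseudogene outside the antibody locus, which had 3 summits within 3 kb (fold up to 7.33, 27 reads).

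The other large cluster ran over 130 kb, from 7915961 to 8046231, with 121 peaks, a median distance of 495.5 bp and no RefSeq gene within 3 kb of any. Fold was 2.3 to 21.6 (median 4.39) and the pileup reached 117 reads. Here 40 of the 43 strong peaks lay in the first 40 kb and 1 lay beyond 50 kb, at a distance of 70 to 80 kb from the start. The densest window of 100 kb, from 7900001 to 8000000, fell on it and held 105 peaks. The strong peaks of this cluster thus stood at its end with lower coordinates, and none lay from 80 kb on. The median fold was 4.15 in the first 10 kb and 5.20, 5.09 and 6.01 in the steps from 10 to 40 kb. It was 2.93 to 4.55 in the steps from 80 kb on, the lowest from a step of 1 peak.

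**Figure D2:**
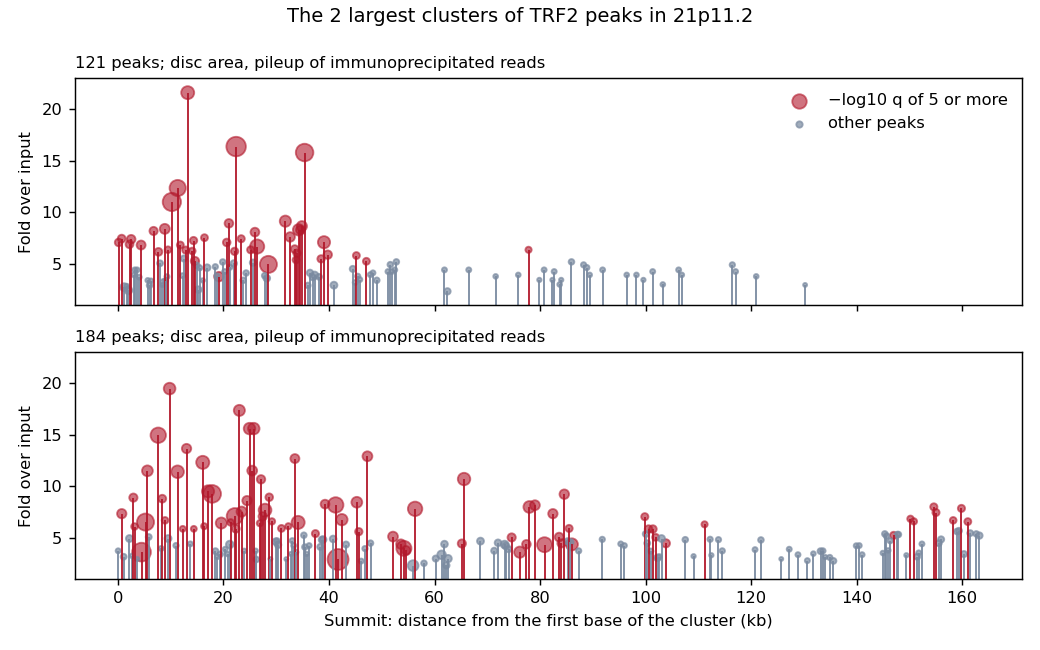
Fold over input of each peak against the distance of its summit from the first base of its cluster, in kb, for the cluster of 121 peaks (top) and that of 184 (bottom); disc area is the pileup of immunoprecipitated reads and red marks a −log10 q of 5 or more. Folds over 10 stand in the first 40 kb of the upper cluster and in the first 70 kb of the lower one.

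The peak of highest fold, at 7929134 to 7929299, had 52 immunoprecipitated reads over an input background of 1.45, a fold of 21.6. It was followed in the same cluster by peaks at 7938233 to 7938512 (117 reads over 6.20, fold 16.4) and 7951276 to 7951450 (95 reads over 5.08, fold 15.8). The deepest of these, with 117 reads, had the highest −log10 q of the stretch, 97.8. In the largest cluster the leaders were 10660862 to 10661953 (42 reads over 1.21, fold 19.5) and 10673927 to 10674218 (38 reads over 1.25, fold 17.4). Behind them came 2 peaks 805 bp apart by their summits with equal values, 41 reads over 1.69 and a fold of 15.6, starting at 10676019 and 10676821. The 10 were completed by 10658525 to 10658841 (73 reads over 3.95, fold 15), 10663859 to 10664252 (27 reads over 1.05, fold 13.7) and a peak outside both clusters. That peak, at 10270186 to 10270336, had 73 reads over 2.82 and a fold of 19.4, with only 1 other summit within 10 kb. None of the 10 had a RefSeq gene within 3 kb, and neither did most of the 597 peaks.

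Smaller groups were weaker. In p12, 44 of the 46 peaks lay between 5216682 and 5390252, the largest group being 20 peaks from 5303485 to 5344129 with a median fold of 3.81 and 3 strong peaks. The strongest peak of p12 stood alone at 6911923 to 6912024, with 16 reads over the background floor and a fold of 8.29, inside the pseudogene LOC100289185. In p11.2, 30 peaks from 7234280 to 7261288 (median fold 4.04, 7 strong) and 25 from 7271355 to 7325162 (median fold 3.90, 1 strong) followed each other. In the group of 30, 6 of the 7 strong peaks lay from 20 kb on, where the input background was raised to a median of 5.55. The strongest peak of q11.1, at 12980727 to 12980890, had 11 reads over 1.08 and a fold of 5.77, and that of q11.2, at 13264823 to 13264891, had 8 reads over the floor and a fold of 4.39.

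The ribosomal genes gave a pattern of their own. The 45S gene encodes the precursor of the 18S, 5.8S and 28S ribosomal RNAs, and units repeat in tandem with a long spacer between them. RefSeq places 3 on this arm: RNA45SN2 (8205988 to 8219302), RNA45SN3 (8389035 to 8402343) and RNA45SN1 (8433222 to 8446572). No summit lay inside any of the 3 genes, and 17 lay within 20 kb past their ends, 6, 6 and 5 in that order. Of the 17 summits, 16 were 8.51 to 18.8 kb past the end, and 1 was 0.694 kb past the end of RNA45SN2. The spacing recurred among these 3 units. Past RNA45SN2, wide peaks ran from 8.91 to 11.5 kb and from 13.8 to 16 kb. Past RNA45SN1 they ran from 9.18 to 11.3 kb and from 12.9 to 15.8 kb. Past RNA45SN3 the corresponding stretches held 4 peaks from 8.50 to 10.9 kb and a peak from 12.5 to 15.4 kb. A further summit stood at 18.1, 18.0 and 17.9 kb past RNA45SN2, RNA45SN3 and RNA45SN1.

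**Figure D3:**
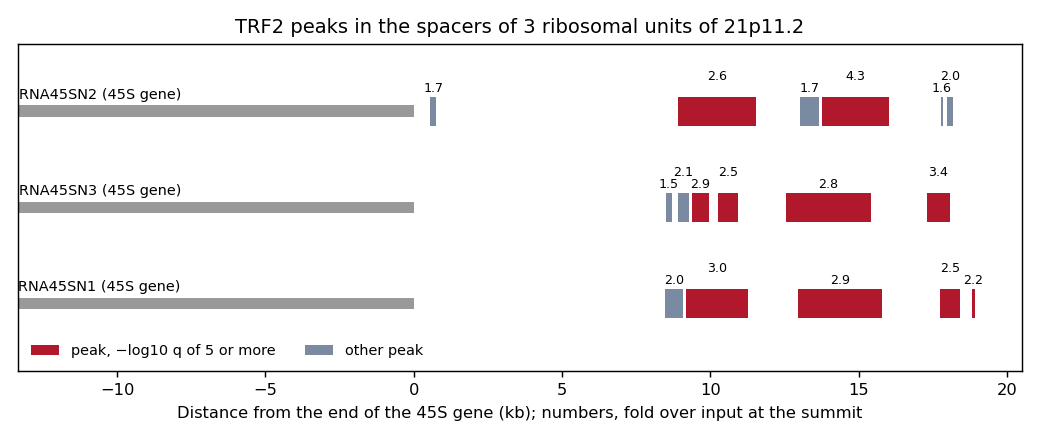
The 17 peaks (boxes, with the fold over input above) past the ends of the 3 annotated 45S genes (grey bars), drawn by distance from the gene's end in kb. Peaks lie 8 to 19 kb past all 3 ends, apart from a narrow peak of fold 1.70 just past RNA45SN2.

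These spacer peaks were deep in both libraries. They had 47 to 105 immunoprecipitated reads (median 63) over an input background of 22.2 to 47.9 (median 25.1), and a fold of only 1.55 to 4.30 (median 2.50). Of the 17 spacer peaks 10 were strong (58.8%), against 25.5% of the 597 and 30.0% of the whole list. Among the 597 the strong share was 7.59% with the background at its floor and 24.7% above it and under 5. It was 71.7% from 5 to 20 and 61.9% at 20 or more, a group that includes these 17. The count thus does not set the spacer peaks apart from others with deep input. The highest fold, 4.30 with 105 reads over 23.6, was past RNA45SN2 at 8233061 to 8235323. The 3 widest peaks of the whole stretch were among them, 2867, 2843 and 2625 bp wide, against a median width of 110 bp over the 597. CDC27P9, CDC27P10 and CDC27P11 are pseudogene copies of a cell cycle gene, annotated at or beside the spacer peaks. They had 2, 2 and 1 summits inside them or within 3 kb, with folds up to 2.03, 3.41 and 2.21. The summit of fold 3.41 lay inside CDC27P10. The units are near-identical copies of a sequence present many times in the genome, so the 3 do not serve as replicates, and their reads cannot be assigned to a unit.

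The miRNA genes of these units had no peak. MIR6724-1, MIR6724-3 and MIR6724-4 stand just ahead of the 3 annotated 45S genes, and MIR6724-2, the copy whose mature form is printed above, stands at 8249505 to 8249596 ahead of the ribosomal pseudogenes RNA18SP5, RNA5-8SP10 and LOC110467529 (8253842 to 8260930). That incomplete unit lacked the spacer peaks: 0 summits lay inside it or within 20 kb past its end, and the next was 149.9 kb on. How much spacer hg38 holds there was not analysed here. The nearest summit was 14.6 kb from MIR6724-1, 22.4 kb from MIR6724-3, 12.2 kb from MIR6724-4 and 12.1 kb from MIR6724-2. MIR3648-1 lies inside RNA45SN2 and MIR10396B inside RNA45SN1, at 11.3 and 16 kb from a summit. Of 12 miRNA genes in the stretch 0 had a summit within 3 kb, which with so few genes allows a share of up to 26.5% (exact). That limit lies above the 16.4% of all genes in the stretch and the 3.09% of all RefSeq genes. The count of 0 thus does not set the miRNA genes apart.

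Pseudogenes, 70 plain and 10 listed as transcribed, were the commonest kind of gene, before 46 long non-coding RNA and 25 protein-coding genes. Of the 177 RefSeq genes in the stretch, 29 (16.4%, exact interval 11.3% to 22.7%) had a summit inside them or within 3 kb, against 19 of 658 genes (2.89%) on the rest of chromosome 21 and 3.09% of all RefSeq genes. The 29 were 15 pseudogenes, 10 long non-coding RNA genes, 2 ribosomal RNA genes that share a peak (RNA45SN2 and RNA28SN2) and 2 protein-coding genes. In or within 3 kb of a gene lay 97 of the 597 peaks (16.2%) and 9 of the 152 strong ones (5.92%).

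BAGE2, of the B melanoma antigen family first described in tumours and testis and listed in the table as a transcribed pseudogene, carried by far the most of these. Its 105 kb (10413497 to 10518274) held 48 summits, of which 46 formed the third largest cluster, from 10425928 to 10488838. They were weak and even, with a fold of 3.14 to 6.06 (median 4.21) and 6 to 14 reads, and 3 were strong. The highest, at 10466604 to 10466868, had 13 reads over 1.31. TPTE, a gene expressed in testis, begins 3308 bp beyond BAGE2 and had 9 summits over 84.1 kb (10521583 to 10605716). Their fold was 3.34 to 4.52 (median 3.42), with 6 to 9 reads, and none was strong. Per kb, BAGE2 had 0.458 summits and TPTE 0.107, a ratio of 4.28 (exact interval 2.08 to 9.93).

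**Figure D4:**
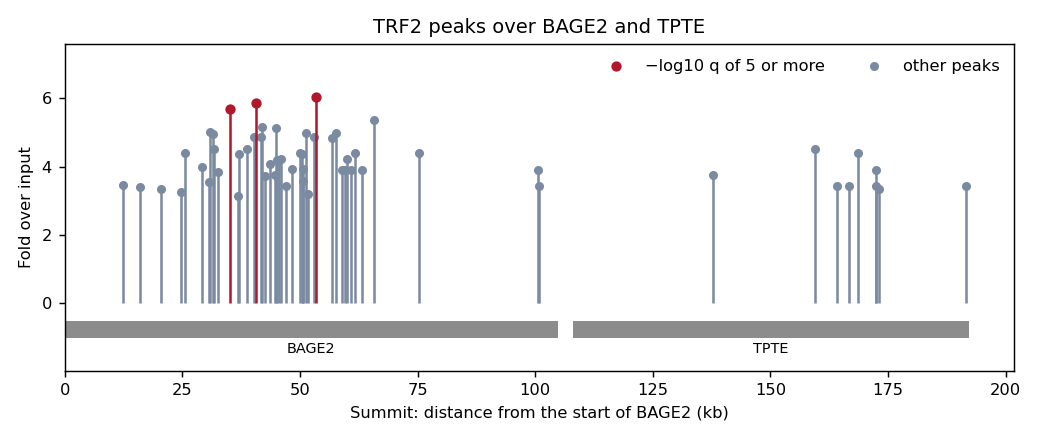
Fold over input of the peaks over BAGE2 and TPTE (grey bars) against the distance of the summit from the start of BAGE2, in kb. The 46 peaks of the BAGE2 cluster crowd in the middle of BAGE2, with folds of 3.14 to 6.06, and the 9 over TPTE are sparse and none passes 4.52.

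Of 13 listed genes of p11.2 to q11.2 found in the table, 3 had a summit within 3 kb (23.1%, exact interval 5.04% to 53.8%), an interval that includes the 16.4% of all genes of the stretch. They were BAGE2, TPTE and ANKRD30BP2, an ankyrin repeat pseudogene with 1 peak of fold 3.41 and 6 reads. Those without included POTED, an ankyrin-repeat gene of the POTE family (nearest summit 48.8 kb), LIPI, a phospholipase gene (197 kb), RBM11, an RNA-binding protein gene (179.8 kb), and HSPA13, a chaperone gene of the HSP70 family (25.1 kb). LOC101927345, the second protein-coding gene with summits, had 3 of fold 3.41 to 4.39 and 6 to 8 reads. Among other transcripts and pseudogenes, LOC105372734 had 5 summits (fold up to 4.88) and LOC105372733 had 3 (up to 3.90). VN1R7P, a vomeronasal receptor pseudogene, had 5 summits within 3 kb, all just outside it, led by 15 reads over 1.76 and a fold of 5.81. LOC107985475 (4.52), LOC124904996 (4.39), LOC102724701 (4.23), MTCO3P26 and MTCO1P1 (a shared peak of 4.23), LINC01666 (4.18) and CDC27P10 (3.41) each had 1 or 2.

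The arm also carries copies of genes of 21q, several of which later assemblies treat as errors of this build. All 9 listed copies were found under locus names and none had a summit within 3 kb (exact upper limit 33.6%). That limit lies above the 16.4% of genes in the stretch and the 3.09% of all RefSeq genes, so the count of 0 does not set the copies apart. They included the copies of CBS, the enzyme cystathionine beta-synthase (CBSL, nearest summit 80.8 kb), of KCNE1, a potassium channel subunit (KCNE1B, 86.5 kb), of GATD3 (GATD3B, 88.3 kb) and of SIK1, a protein kinase (SIK1B, 240.3 kb). The 8 of their 9 counterparts on 21q found in the table had none either (upper limit 36.9%), the nearest summit lying 201 kb from KCNE1. Reads that fit a copy and its counterpart alike cannot be assigned to either.

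The peaks were also grouped by the depth of the input. The background was at its floor for 145 peaks (24.3%, whole list 29.5%), above it and under 5 for 385, from 5 to 20 for 46, and 20 or more for 21. In that order the median pileup was 7, 10, 36 and 66 reads, and the median fold 3.90, 4.29, 4.33 and 2.52. Every listed peak has a −log10 p of at least 3.01, so a deeper background requires a deeper pileup. The calling thus limits the lowest pileup of each group, which was 5, 5, 13 and 47 reads in the same order. How far it also sets the rise in the medians was not tested, so that rise is not read as a trait of these peaks. Of the 21 with the deepest input, 17 were the spacer peaks past the 45S genes and 2 were in the largest clusters, among them the deepest peak of the stretch (10692713 to 10693096, 135 reads over 46.3, fold 2.88). Of the 46 with a background from 5 to 20, 32 were in the 2 largest clusters. By medians, those clusters together stood at fold 4.61 with 12 reads over 1.69, the ribosomal spacers at fold 2.50 with 63 reads over 25.1, and the remaining 275 peaks at fold 3.90 with 9 reads over 1.13.

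**Figure D5:**
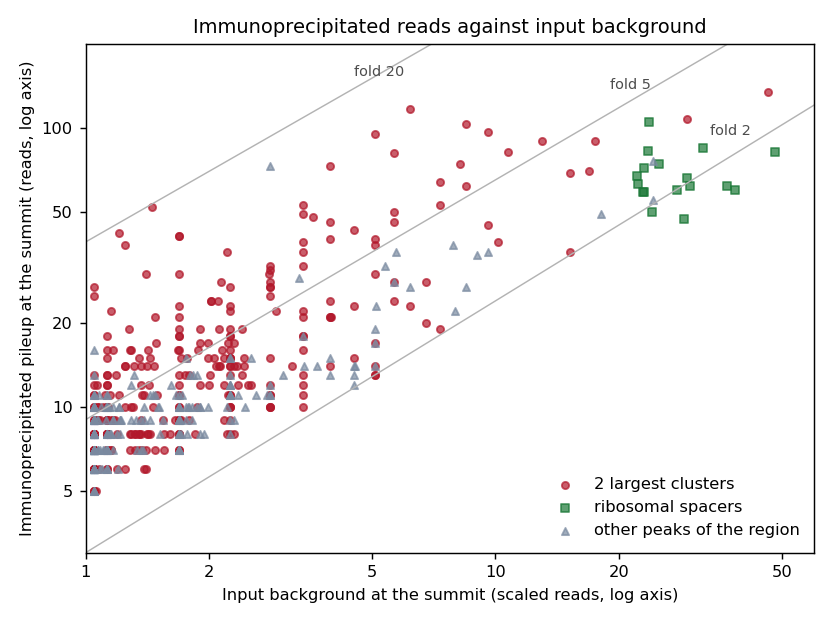
Pileup of immunoprecipitated reads against input background at each summit (both log axes) for the 305 peaks of the 2 largest clusters, the 17 past the 45S genes and the other 275; grey lines mark a fold of 2, 5 and 20. All 17 spacer peaks have a background of 22.2 or more, a range that 4 other peaks share, and 19 of the 20 folds of 10 or more belong to peaks of the 2 largest clusters.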

How the data were processed

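TRF2 occupancy was measured in HCT116 cells by chromatin immunoprecipitation and sequencing, 1 library, against 1 input library. Chromatin was sonicated to about 300 to 400 bp and 100 μg of it was used with 5 μg antibody, per the labels. The name of the deposited list mentions a control siRNA and the labels no transfection, which is not settled here. Per the submitters' processing notes, the tools were MACS2 2.1.0, Bowtie2 2.3.2, ChIPseeker 1.36.0 and HOMER, on GRCh38, also called hg38. Their settings and the library totals were not given in the sources used here. For each peak the deposited list gives a fold ratio over the input background, a −log10 p-value, a −log10 q-value and a score, which is 10 times the −log10 p cut to a whole number. All are the authors' own, and served here to rank, filter and describe peaks of this single list.

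Pileup and background were recovered by taking the fold as pileup plus 1 over background plus 1 and p as the chance of a larger Poisson count. Whole pileups matched in 100% of peaks within 0.001 on −log10 p. The recovery and the clustering were tested on simulated data. Bands came from circlize 0.4.16 (R 4.3.3) and gene spans from RefSeq (GRCh38.p14, 58961 genes kept), which give neither exons nor strand. Intervals are exact at 95%. Tables were handled with pandas 2.3.3 and numpy 2.4.6, intervals with scipy 1.17.1 and plots with matplotlib 3.10.9, under Python 3.11.15. Coordinates are 1-based. The members, gene lists and thresholds were chosen with earlier results of these data known. Peaks are named by rule: the 10 of highest fold, the 6 largest clusters, the strongest of each band, the 3 widest, listed genes, and other genes by strongest fold. No genome sequence was used, so planned counts of telomere repeats in peaks and planned peak sequences were left out. The recurring spacer pattern and the 10 kb steps were described after seeing the data.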

Additional observations from a re-analysis of the deposited data

How the results depend on the processing

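The count of 597 peaks became 476 at a q-value under 0.05, 152 at a −log10 q of 5 or more and 157 at a fold of 5 or more. The share of chromosome 21 peaks under 15 Mb was 94.9%, and 96.7%, 96.8% and 97.5% with these settings; the density ratio of 39.4 became 62.9, 64.3 and 83.0. With a −log10 q of 5 or more, p12 kept 4 peaks, p11.2 148, q11.1 0 and q11.2 0, while a q-value under 0.05 left q11.2 with 4. With the same settings the median fold was 4.39 (q under 0.05) and 6.48, and at the stricter one the share at the background floor was 7.24% and the share in the 2 largest clusters 80.3%. The centromere bands held 41 peaks when widened by 100 kb on both sides and 0 when narrowed, since all 19 lie at their edge. Clusters numbered 259 with a gap of 1 kb and 24 with 50 kb. The densest window held 200 peaks at 500 kb. Genes with a summit were 14 when only summits inside a gene counted and 43 when summits within 10 kb did. The share in the 2 largest clusters was added after seeing the data, as were the next values: leaving out peaks with a background of 5 or more gave 90.6% of strong peaks in the 2 largest clusters, and 10 of the 17 spacer peaks passed the stricter q. Of 36 alternatives 11 were classed as the same as the reported value and 25 as moved. These classes do not rank closeness. A change from 29 genes to 43 was classed as the same, and a median fold of 4.39 against 4.19 as moved. The count of peaks holding a telomere repeat could not be run. No paired analysis was possible because there is 1 library per group. The shallowest peaks have 5 reads, and binding below that was not detectable at this depth.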
